A study of Mus musculus with 2 samples.

Results

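Chromatin accessibility was measured at 8 stress-response genes in mouse brain after ischemic stroke. The genes were chosen by name: Hspa1a, Hspa1b, Hspb1, Hsph1, Dnajb1, Hsp90aa1 and Hspa8, which encode heat shock proteins, and Hmox1, which encodes heme oxygenase-1. They were 8 of the 21911 protein-coding genes counted. Single-cell ATAC-seq, in which the transposase Tn5 cuts and tags open DNA, gave 1 sham library and 1 stroke library. Both came from young adult male wild-type C57BL/6J mice, and each pooled 4 brains that were flash frozen 48 h after surgery. Stroke mice had the middle cerebral artery occluded with a filament for 1 h and then reperfused (MCAO/R), and only the ipsilateral hemisphere was used. Control mice had sham surgery, in which the artery was not kept closed, and their brains were used with no side stated. The difference in tissue (brain against ipsilateral hemisphere) and the difference in surgery therefore cannot be told apart, and a level that differs may reflect fewer cells of a type or less open chromatin per cell.

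Heat shock proteins are chaperones. HSP70 (Hspa1a, Hspa1b and the constitutive Hspa8) folds client proteins with the help of J proteins such as Dnajb1 and of the nucleotide exchange factor HSP110 (Hsph1), HSP90 (Hsp90aa1) matures kinases and steroid receptors, and the small heat shock protein Hspb1 holds unfolding proteins and actin. The transcription factor HSF1 switches on the inducible members after stress by binding heat shock elements, arrays of GAA units in alternating orientation, while Hmox1, which degrades heme to biliverdin, iron and carbon monoxide, is known for upstream enhancers bound by NRF2, its competing repressor BACH1 and small MAF proteins. In brain, Hspb1 is known to be induced in reactive astrocytes and Hmox1 in microglia, macrophages and astrocytes after ischemia or bleeding.

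For each gene, fragments were counted over the gene body plus 2 kb upstream, called its window, in nuclei that passed the cell call and had more than 20% of their fragments in peaks. In mm10 the gene bodies lie at chr17:34969190-34972156 (Hspa1a, minus strand), chr17:34956436-34959238 (Hspa1b, minus strand), chr5:135887919-135889563 (Hspb1, plus strand), chr5:149614287-149636376 (Hsph1, minus strand), chr8:83608193-83612653 (Dnajb1, plus strand), chr12:110690605-110702728 (Hsp90aa1, minus strand), chr9:40800984-40810087 (Hspa8, plus strand) and chr8:75093621-75100589 (Hmox1, plus strand). The filter left 6817 of 6979 called sham barcodes and 5054 of 8740 called stroke barcodes, with 73477848 and 52794287 fragments and medians of 10356 and 9898 per nucleus. The median share of fragments in peaks was 38.8% in sham and 33.2% in stroke among the kept nuclei. Values are fragments in the window per 1000000 fragments of the same nuclei (CPM). With 1 library per condition there was no replicate and no test, and the 95% intervals given here cover counting error only, exact Poisson for a level and exact binomial for a stroke over sham ratio. A gene was called different where its ratio was 1.5-fold or more in either direction and both libraries together held at least 20 fragments.

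The sequences at issue are the promoters of Hspa1a, Hspa1b and Hspb1 and an intergenic site upstream of Hspb1. They were read from RefSeq promoters and the GRCm38.p6 genome, the assembly of mm10, in which 5 of the 8 genes had promoter entries. Capitals in the first 3 mark a pair of facing GAA units (GAANNTTC or TTCNNGAA, either strand), the shortest form of a heat shock element searched. Hspa1a (chr17:34972157-34972406, minus strand) and Hspa1b (chr17:34959239-34959488, minus strand) are neighbours on chromosome 17 that encode nearly the same HSP70, and their promoters are shown because reads from one can be hard to place apart from the other. Hspb1 (chr5:135887669-135887918, plus strand) is shown because, of the 8 genes, its chromatin differed most between the libraries in astrocytes. Each promoter is the 250 bases that end just before the start of the gene.
Hspa1a: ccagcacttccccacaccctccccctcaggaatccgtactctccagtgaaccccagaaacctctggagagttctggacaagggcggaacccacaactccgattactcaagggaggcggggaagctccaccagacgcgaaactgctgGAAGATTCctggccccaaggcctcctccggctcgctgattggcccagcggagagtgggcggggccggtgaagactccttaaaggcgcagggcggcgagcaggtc
Hspa1b: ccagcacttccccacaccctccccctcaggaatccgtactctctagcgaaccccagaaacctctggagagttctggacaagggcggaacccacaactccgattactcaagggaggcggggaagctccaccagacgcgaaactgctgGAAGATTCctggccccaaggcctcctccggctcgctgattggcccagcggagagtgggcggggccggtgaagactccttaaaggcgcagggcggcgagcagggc
Hspb1: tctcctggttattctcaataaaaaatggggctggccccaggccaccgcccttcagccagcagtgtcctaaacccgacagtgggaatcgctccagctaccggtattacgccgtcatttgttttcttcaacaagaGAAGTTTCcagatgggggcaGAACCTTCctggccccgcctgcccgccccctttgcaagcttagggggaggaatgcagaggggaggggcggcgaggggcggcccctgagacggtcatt
Over 300 bases from 250 before to 50 after the start, the Hspa1a and Hspa1b promoters were identical at 296 positions (98.7%) and differed by C44T, T47C, T249G and C276T, written with the Hspa1a base first and counted from 1 at the 5′ end of the window.

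The paired element was found once in each HSP70 promoter, from base -104 relative to the start, and both promoters had a CCAAT box at -67. Hspb1 held 2 such pairs, at -117 and -97. Hsph1 held 3 within its 300 bases, at -33, 36 and 41, and the pairs at 36 and 41 overlapped in a run of 3 alternating units. No pair was found in the 2 Dnajb1 entries, which says only that these letters are absent from those windows. Of 32851 RefSeq promoters of the same length, 15.1% held a paired element and 0.603% held 3 units, so the paired form is common and a match is a description of the sequence, not a binding site.

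The fourth sequence is the 300 bases with most cut sites of stroke astrocytes between 9 and 7 kb upstream of Hspb1 (chr5:135879838-135880137, plus strand). It lies 7782 to 8081 bases before the Hspb1 start, where there is no annotated gene. It was chosen after the values were seen and by its stroke cuts, which favours a stroke excess there (17 cuts in sham and 100 in stroke astrocytes). Capitals mark the core of an antioxidant response element (TGACNNNGC on either strand), the short form that NRF2 and BACH1 with small MAF proteins are known to bind, at base 64 of the site.
Hspb1 upstream site: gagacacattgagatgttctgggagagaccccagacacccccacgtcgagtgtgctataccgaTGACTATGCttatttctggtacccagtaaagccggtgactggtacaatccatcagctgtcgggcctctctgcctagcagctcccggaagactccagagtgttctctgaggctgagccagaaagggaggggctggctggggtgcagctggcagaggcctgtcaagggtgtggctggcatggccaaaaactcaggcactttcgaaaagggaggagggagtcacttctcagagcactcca
The same core was found in 8.10% of 493034 windows of 300 bases along chromosome 5 and in 12.4% of promoters. The site held no paired heat shock element, no AP-1 site (TGANTCA), no CCAAT and no TATAAA.

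Across all kept nuclei, none of the 8 genes passed 1.5-fold. Hmox1 and Hspb1 were higher in stroke, Hspa1a and Hspa1b were near the sham level, and Hsph1, Dnajb1, Hsp90aa1 and Hspa8 were lower in CPM and had ratios of 0.9998 to 1.05 when scaled to the fragments in peaks. With all called barcodes these 4 ratios were 0.626, 0.592, 0.627 and 0.585, past the lower 1.5-fold limit, and all genes were not counted on that filter. Among the kept nuclei, 0 of 8 members were called higher and 0 lower, against 11.5% of 20979 genes called higher and 0.372% called lower. The share called higher depended on level. With all genes ranked by level in 10 groups of equal size, numbered from the lowest, it was 68.4% in group 1. In groups 7 to 10, which hold all 8 members, it was 0.191% to 0.667%. The count of 0 of 8 higher thus does not set the members apart from genes of like level. The median log2 ratio was -0.09 over the members and -0.03 over all genes tested. Hmox1 gave 616 fragments in sham and 614 in stroke, or 8.38 and 11.6 CPM, for a ratio of 1.39 (1.24 to 1.55), and 14.7% of all genes tested had a higher ratio. In the seventh level group, where Hmox1 lies, the median log2 ratio was -0.10 and 0.667% of genes were called higher. Hspb1 gave 229 and 207 fragments, or 3.12 and 3.92 CPM, and a ratio of 1.26 (1.04 to 1.53). Both intervals lay above 1. With all called barcodes the Hspb1 ratio was 1.01.

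The stress-inducible HSP70 pair had ratios near 1 over the kept nuclei, and their direction depended on the scaling and the barcode filter. Hspa1a gave 487 and 385 fragments (6.63 and 7.29 CPM) and a ratio of 1.10 (0.960 to 1.26). Hspa1b gave 541 and 384 fragments (7.36 and 7.27 CPM) and a ratio of 0.988 (0.865 to 1.13). Both intervals held 1. Scaled to the fragments in peaks the ratios were 1.29 (1.13 to 1.48) and 1.16 (1.02 to 1.33), and with all called barcodes they were 0.814 (0.716 to 0.925) and 0.739 (0.652 to 0.837). Summed, the pair had 14.0 CPM in sham and 14.6 in stroke. Of all 50-base words in each window, 39.4% for Hspa1a and 40.7% for Hspa1b recur elsewhere in the assembled genome, mostly in the other gene of the pair, so how the aligner placed such reads bears on the 2 values taken apart.

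The abundant chaperones were all below the sham level in CPM. Hspa8, the constitutive HSP70, went from 80.2 CPM (5895 fragments) to 69.2 CPM (3653 fragments), a ratio of 0.862 (0.827 to 0.899). Hsph1 went from 64.4 to 54.8 CPM, with a ratio of 0.850 (0.811 to 0.891). The intervals of both lay below 1. Hsp90aa1 had 52.7 CPM in sham and 46.9 in stroke, a ratio of 0.890, and Dnajb1 had 51.4 and 44.4 CPM, a ratio of 0.863. Genes at such levels were lower as a group: with all genes ranked by level in 10 groups of equal size, the median log2 ratio was -0.18 in the highest group, where Dnajb1, Hsp90aa1 and Hspa8 lie, -0.15 in the ninth, where Hsph1 lies, and -0.10 in the seventh, where Hspb1 and Hmox1 lie. When levels were scaled to the fragments in peaks in place of all fragments, the ratios of Hspa8, Hsp90aa1 and Dnajb1 were 1.01, 1.05 and 1.01, that of Hsph1 was 0.9998 and that of Hmox1 was 1.63, while the median log2 ratio of all genes was 0.21.

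**Figure D1:**
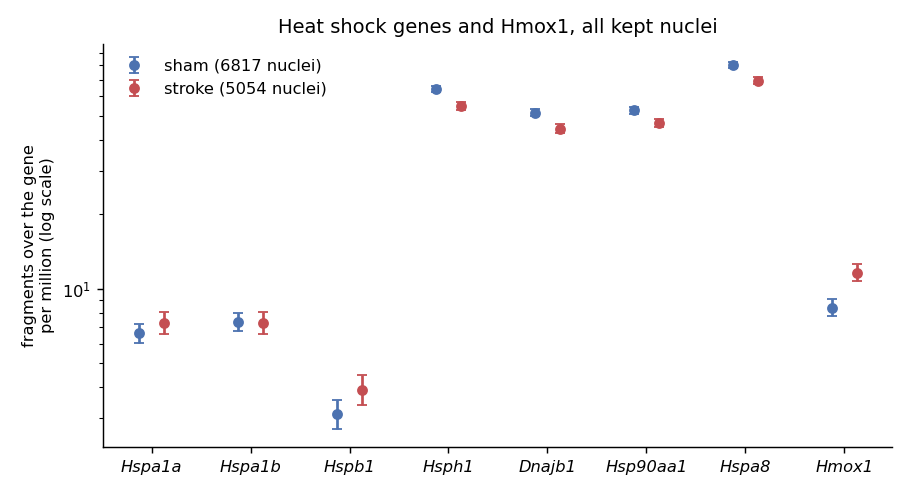
Fragments per 1000000 over each gene's window in all kept nuclei of the sham and the stroke library on a log scale, with exact 95% Poisson intervals (counting error only). Hmox1 and Hspb1 are higher in stroke (8.38 against 11.6 and 3.12 against 3.92), and the 4 abundant genes are lower.

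Per kb of window the order of levels in sham nuclei was Dnajb1 (7.96 CPM per kb), Hspa8 (7.23), Hsp90aa1 (3.73), Hsph1 (2.67), Hspa1b (1.53), Hspa1a (1.33), Hmox1 (0.935) and Hspb1 (0.855). The neighbours Hspa1b and Hspa1a, and the neighbours Hmox1 and Hspb1, had overlapping counting intervals and cannot be ordered. The order was the same in stroke nuclei, from Dnajb1 at 6.87 to Hspb1 at 1.08 CPM per kb, and there the interval of Hmox1 also overlapped those of Hspa1a and Hspa1b. Within 1 kb of the start lay from 59.4% to 83.8% of the fragments of 7 members. Hsp90aa1 was the exception at 9.86% in sham and 11.3% in stroke: its annotated start is that of a longer transcript, and its most open 500 bases began 6 kb inside the gene, with 2407 fragments in sham and 1407 in stroke. Windows overlap other genes at Hspa1a (Hspa1l and Gm20481), Dnajb1 (Tecr) and Hspa8 (3 snoRNA genes), and fragments there cannot be assigned to one of them.

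Nuclei were next divided into classes by a gate on 98 marker genes, which kept 1624 sham and 1192 stroke nuclei and left 76.2% and 76.4% of nuclei in no class. The 5 classes with at least 100 nuclei in each library were compared. In the astrocyte class (271 sham and 326 stroke nuclei) the astrocyte markers were 4.19-fold (sham) and 4.01-fold (stroke) above the other classes, and no other class's markers passed 1.71-fold. In the myeloid class (150 and 170 nuclei) the markers were 3.78-fold and 3.96-fold, but when the markers were split and one part was left out of the gate, that part was 1.45-fold to 1.48-fold in sham and 2.36-fold to 3.09-fold in stroke, and glutamatergic markers were 1.71-fold in the sham class. The sham nuclei gated as myeloid were by this measure less enriched for their own markers than those from stroke. For astrocytes the left-out markers were 2.22-fold to 3.34-fold in sham and 3.02-fold to 3.79-fold in stroke. They were 1.79-fold to 2.04-fold in sham and 1.74-fold to 2.46-fold in stroke for glutamatergic neurons. For interneurons they were 1.98-fold to 3.31-fold and 1.89-fold to 2.44-fold, and for striatal projection neurons 3.49-fold to 4.09-fold and 2.39-fold to 3.11-fold. The gate cannot tell microglia, macrophages and granulocytes apart. The libraries shared 42 barcode sequences among the kept nuclei.

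In astrocyte nuclei, 3 of the 8 genes were called higher in stroke (Hspb1, Hspa1a and Hmox1) and 0 lower, and no chaperone of the abundant set was among them. Of 16775 genes tested, 8.36% were called higher and 8.33% lower, and among genes with 20 to 199 fragments, the range of these 3 members, 13.6% were called higher. Hspb1 had 7 fragments in sham and 41 in stroke (2.08 and 11.2 CPM), in 6 of 271 and 33 of 326 nuclei, a ratio of 5.39 (2.40 to 14.3). Of the genes tested, 24 (0.143%) had a higher ratio. Hspa1a had 22 and 55 fragments (6.54 and 15.1 CPM) in 17 and 49 nuclei, a ratio of 2.30 (1.38 to 3.97). Hmox1 had 34 and 71 fragments (10.1 and 19.4 CPM) in 31 and 60 nuclei, a ratio of 1.92 (1.26 to 2.99). For these 3 genes the fragments were spread over many nuclei.

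The other members in astrocytes did not pass the limit. Hspa1b had 33 and 39 fragments (9.81 and 10.7 CPM), a ratio of 1.09 (0.667 to 1.79), and the HSP70 pair summed to 55 and 94 fragments, a ratio of 1.57 (1.12 to 2.24). Hsph1 had 59.7 and 69.3 CPM, a ratio of 1.16. Hspa8 was the most open member in astrocytes, at 118 and 114 CPM, and Dnajb1 and Hsp90aa1 had ratios of 1.03 and 1.01. When nuclei were assigned by their profile over other genes, which widened the class (581 sham and 659 stroke astrocyte nuclei, a choice made after the data were seen), Hspb1 had 25 and 70 fragments and a ratio of 2.09, Hmox1 had 46 and 106 and a ratio of 1.72, and Hspa1a had 38 and 82 and a ratio of 1.61. There Hspa8 and Hsp90aa1 were lower in stroke, with ratios of 0.825 (0.734 to 0.927) and 0.831 (0.7003 to 0.987). With a stricter gate (193 sham and 251 stroke nuclei) the Hspb1 ratio was 15.2. Its sham count was only 7 fragments with the main gate, so this ratio rests on few fragments. When every nucleus was thinned to 3000 fragments, Hspb1 kept 1 and 15 fragments (a ratio of 12.1), Hspa1a kept 8 and 10 (1.01) and Hmox1 kept 12 and 14 (0.939, 0.403 to 2.22). At that depth Hspb1 and Hspa1a were under the minimum of 20 fragments and none of the 3 was called.

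Within the Hspb1 locus the astrocyte difference lay at the promoter and at the upstream site. Within 0.5 kb of the Hspb1 start, astrocytes had 3 fragments in sham and 31 in stroke (0.892 and 8.49 CPM), a ratio of 9.52 (2.97 to 48.6). Between 8.5 and 7.5 kb upstream, the bin that holds the printed site, they had 13 and 92 fragments (3.86 and 25.2 CPM) in 11 and 67 nuclei, a ratio of 6.52 (3.63 to 12.7). The upstream site thus held more fragments than the whole Hspb1 window in the same nuclei. With the wider assignment it had 16 and 129 fragments and a ratio of 6.03 (3.57 to 10.9), and the promoter had 22 and 53 and a ratio of 1.80 (1.08 to 3.11). In the myeloid class the upstream site had 4 and 7 fragments (1.77 and 2.86 CPM), in glutamatergic neurons 10 and 11 (2.05 and 4.33 CPM, a ratio of 2.11, 0.815 to 5.55) and in striatal projection neurons 15 and 3 (1.94 and 1.31 CPM, a ratio of 0.676, 0.125 to 2.39), and these intervals held 1. With the wider assignment glutamatergic neurons had 103 and 83 fragments at the site, a ratio of 1.40 (1.03 to 1.88) with an interval above 1. These bins were picked for their values, so the ratios are descriptions. The most open bin downstream of Hspb1, 15500 to 16000 bases after its start, had 71 and 68 cut ends in astrocytes, and the bin beside it, from 16000 to 16500 bases, had 57 and 27 (16.9 and 7.39 per 1000000 fragments), so it was lower in stroke. Over all kept nuclei the site had 198 and 314 fragments, a ratio of 2.21 (1.84 to 2.65).

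**Figure D2:**
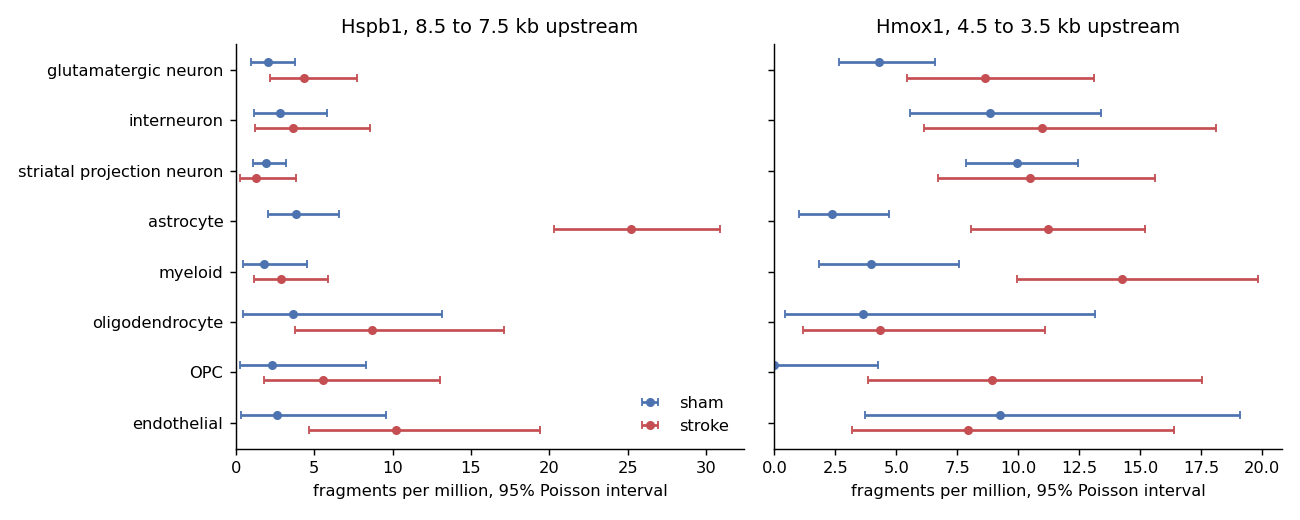
Fragments per 1000000 at the Hspb1 site 8.5 to 7.5 kb upstream and the Hmox1 site 4.5 to 3.5 kb upstream, in 8 classes of both libraries, as points with exact 95% Poisson intervals (counting error only); classes under 100 nuclei in a library are shown for their values alone. The astrocyte value of the Hspb1 site goes from 3.86 in sham to 25.2 in stroke, and the Hmox1 site is higher in stroke in astrocyte (2.38 to 11.2) and myeloid nuclei (3.98 to 14.3).

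At Hspa1a, the 0.5 kb before the start, which holds the printed promoter, had 14 fragments in sham and 32 in stroke astrocytes (4.16 and 8.76 CPM), a ratio of 2.105 (1.09 to 4.27). The bin was picked for its ratio, and with the wider assignment it had 27 and 57 fragments, a ratio of 1.58 (0.982 to 2.60) whose interval held 1. Fragments at the promoters were mostly shorter than a nucleosome (64.1% to 85.3% under 150 bases over the 8 genes and both libraries).

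In myeloid nuclei, Hmox1 was the 1 gene called higher of the 7 tested, and 0 were called lower, against 17.4% of 16421 genes called higher and 14.7% lower. Among genes with 20 to 199 fragments 20.8% were called higher. Hmox1 had 18 fragments in sham and 49 in stroke (7.96 and 19.99 CPM), in 11 of 150 and 36 of 170 nuclei, a ratio of 2.51 (1.44 to 4.58), and 5.27% of genes had a higher ratio. A stricter gate (98 sham and 130 stroke nuclei) gave 5.03, where the main gate held 18 sham fragments. The assignment by profile that widened the astrocyte class moved the myeloid class to 82 sham and 296 stroke nuclei, fewer in sham and more in stroke than the gate, and gave 9 and 90 fragments (7.76 and 19.2 CPM). In CPM the Hmox1 level in stroke myeloid nuclei was close to that in stroke astrocytes, 19.99 and 19.4. The myeloid class had a median of 38.3% of fragments in peaks in sham and 30.9% in stroke, and stroke astrocytes had 50.7%. The 2 levels were thus alike per fragment counted, and were not compared per fragment in peaks. The part of the share in peaks in the myeloid ratio was not tested. Hspb1 had 11 and 5 fragments, under the minimum. Hsph1 had 147 and 118 fragments (65.0 and 48.1 CPM), a ratio of 0.740 (0.576 to 0.950), which was 0.934 (0.727 to 1.198) when scaled to the fragments in peaks, and the other 5 genes tested had intervals that held 1.

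Upstream of Hmox1, an intergenic interval 4.5 to 3.5 kb before its start (chr8:75089121-75090120) was more open in stroke in both classes. In astrocytes it had 8 fragments in sham and 41 in stroke, a ratio of 4.72 (2.18 to 11.7). In myeloid nuclei it had 9 and 35, a ratio of 3.59 (1.69 to 8.48). Glutamatergic neurons had 21 and 22, a ratio of 2.01 (1.06 to 3.85), and striatal projection neurons had 77 and 24 (9.95 and 10.5 CPM, a ratio of 1.05, 0.637 to 1.68). Interneurons had 22 and 15, a ratio of 1.24 (0.599 to 2.505), and with the wider assignment 63 and 59, a ratio of 1.76 (1.21 to 2.56) with an interval above 1. Farther away, at 10 to 9.5 kb, the ratio was 1.46 (0.965 to 2.24) in astrocytes and 2.13 (1.16 to 4.11) in myeloid nuclei. Between them, at 7.5 to 7 kb, myeloid nuclei had 0 fragments in sham and 11 in stroke (4.49 CPM), and the assignment by profile gave 1 and 14 fragments, a ratio of 3.47 (0.528 to 147) whose interval held 1. The most open bin downstream of Hmox1, 15500 to 16000 bases after its start, had 147 and 148 cut ends in astrocytes and 67 and 73 in myeloid nuclei. Within 0.5 kb of the Hmox1 start the ratios were 1.69 in astrocytes and 2.24 in myeloid nuclei. Within 1 kb of the start the astrocyte ratio was 1.66 (0.995 to 2.82), an interval that held 1, and the myeloid ratio was 2.27 (1.22 to 4.46). With the assignment by profile, the myeloid ratios were 1.56 (0.795 to 3.41) at 10 to 9.5 kb and 1.86 (0.885 to 4.499) within 0.5 kb of the start, with intervals that held 1, and 2.79 (1.02 to 10.7) at 4.5 to 3.5 kb. The intervals were picked after their values were seen.

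**Figure D3:**
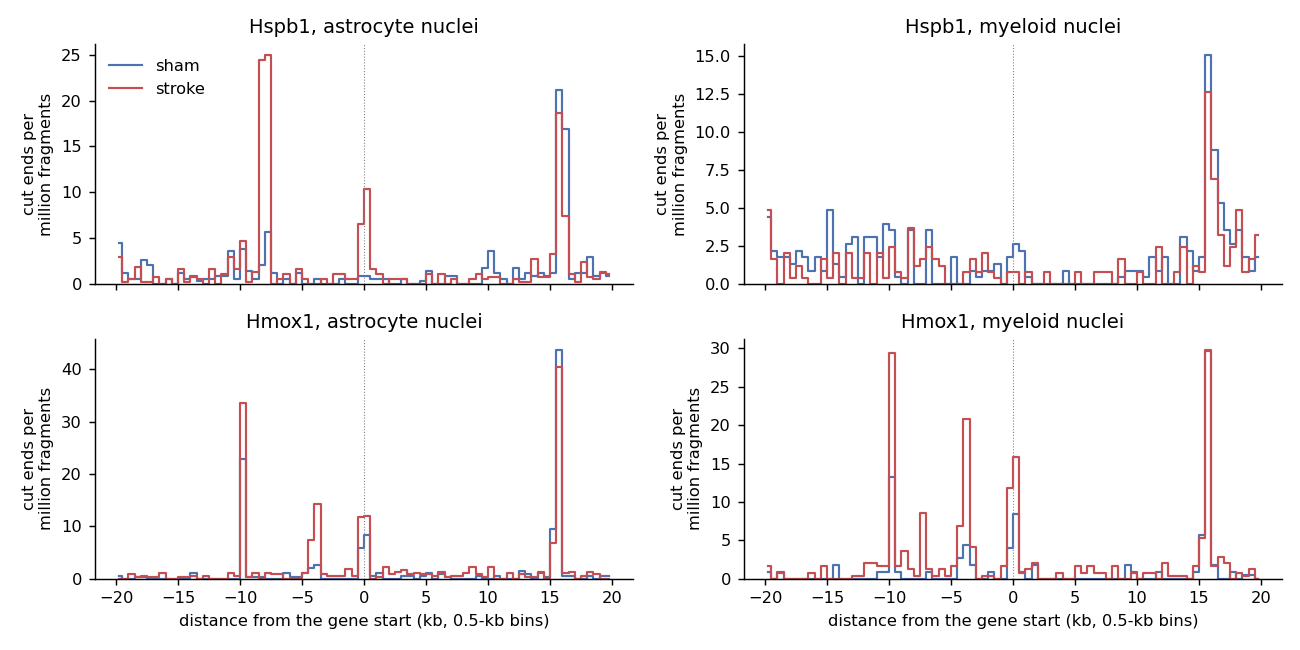
Tn5 cut ends per 1000000 fragments in 0.5-kb bins against distance from the gene start (kb, upstream to the left) at Hspb1 and Hmox1, in astrocyte and myeloid nuclei of both libraries, with no error shown. The bins near -8 kb and at the start of Hspb1 are higher in stroke in astrocytes, and those near -4 kb and at the start of Hmox1 are higher in stroke in both classes.

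In the neuronal classes the calls fell on Hspa1b and Hmox1 and differed between classes. In glutamatergic neurons (322 and 174 nuclei), Hspb1 had 11 and 3 fragments and was not tested, and 1 of 7 members was called higher and 0 lower, against 7.21% and 7.54% of 16899 genes: Hspa1b, with 33 and 34 fragments (6.76 and 13.4 CPM) and a ratio of 1.98 (1.19 to 3.30). That ratio was 0.966 under the wider assignment and 1.004 with another marker set. In interneurons (195 and 108 nuclei), 0 of 6 members were called higher and 1 lower, against 8.10% and 11.7% of genes. The gene was again Hspa1b, with 19 and 4 fragments (7.64 and 2.93 CPM) and a ratio of 0.383 (0.0949 to 1.15). In striatal projection neurons (496 and 159 nuclei), 1 of 7 members was called higher and 1 lower, against 7.96% and 7.68% of genes. Hmox1 had 37 and 17 fragments (4.78 and 7.43 CPM), a ratio of 1.55 (0.820 to 2.83), and Hspa1b had 41 and 8 fragments (5.30 and 3.49 CPM), a ratio of 0.659 (0.267 to 1.42). Both intervals held 1, and with the wider assignment neither call remained (Hmox1 43 and 21 fragments, a ratio of 1.09, 0.613 to 1.87, and Hspa1b a ratio of 1.05). When levels were scaled to the fragments in promoters, the calls of all genes shifted upward, to 13.2% higher and 3.56% lower in glutamatergic neurons, 10.9% and 8.74% in interneurons and 14.2% and 3.93% in striatal projection neurons. In myeloid nuclei, scaling to the fragments in peaks gave 32.7% higher and 5.45% lower.

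**Figure D4:**
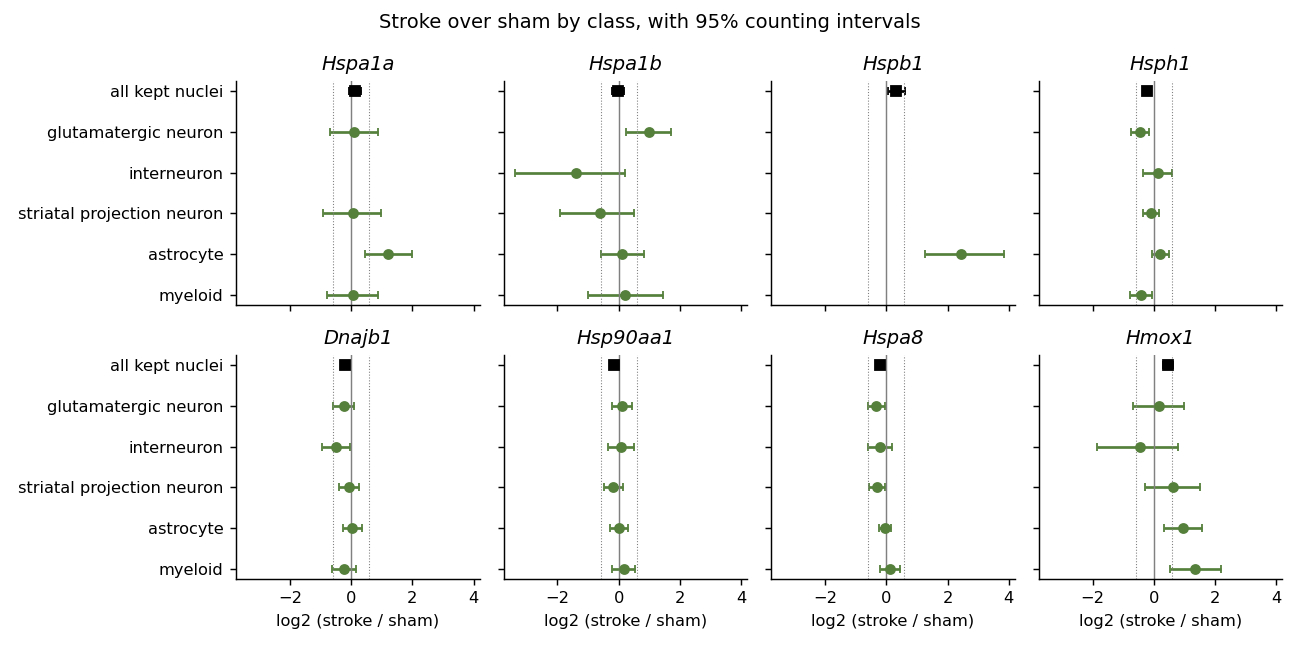
Stroke over sham ratio of each gene on a log2 axis, with exact 95% binomial intervals (counting error only) and dotted lines at the 1.5-fold limits, in all kept nuclei and in the 5 compared classes where the gene had at least 20 fragments. Hspb1 in astrocytes (5.39) is the farthest from 1, and Hmox1 is past the upper limit in astrocytes (1.92), myeloid nuclei (2.51) and striatal projection neurons (1.55, with an interval that holds 1).

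Across the compared classes the 4 abundant chaperone genes spanned narrower ranges of level than the other 4 genes. Over the 10 combinations of class and library, the log2(CPM + 1) level of Hsp90aa1 spanned 0.29, that of Dnajb1 0.53, that of Hsph1 0.78 and that of Hspa8 0.998, while Hspa1a spanned 1.80, Hmox1 1.86, Hspa1b 1.87 and Hspb1 2.49. The last 4 have few fragments per class, which widens a range. Hspa8 had its highest CPM in astrocytes in both libraries, and in the other 4 classes it lay between 67.6 and 80.0 CPM in sham and between 58.6 and 76.3 CPM in stroke. Astrocytes also had the highest median share of fragments in peaks, 49.0% in sham and 50.7% in stroke. In the other 4 classes that share was 33.0% to 42.5% in sham and 30.4% to 35.7% in stroke, and its part in the ranking was not tested. Hspa8 was lower in stroke in glutamatergic neurons (78.6 and 62.9 CPM, a ratio of 0.800, 0.661 to 0.965) and in striatal projection neurons (80.0 and 65.5 CPM, a ratio of 0.819, 0.680 to 0.980), with intervals below 1. Hsph1 was likewise lower in glutamatergic neurons (70.4 and 51.5 CPM, a ratio of 0.731, 0.593 to 0.897). Dnajb1 was lower in interneurons (57.1 and 41.0 CPM, a ratio of 0.718, 0.517 to 0.985). None of these 4 passed the 1.5-fold limit, and scaled to the fragments in peaks each interval held 1 (ratios of 0.962, 0.989, 0.880 and 0.798 in the same order).

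The classes with under 100 nuclei in a library gave values but no comparison. In oligodendrocyte precursors (71 and 80 nuclei), Hspb1 had 7 fragments in sham and 1 in stroke, Hspa1a had 9 and 5, and Hspa1b had 9 and 0. In oligodendrocytes (46 and 85 nuclei) these genes had 2 and 3, 5 and 7, and 3 and 8 fragments. In endothelial nuclei (56 and 75), Hspb1 had 7 and 3 fragments and Hmox1 had 5 and 11. The stroke astrocytes held more Hspb1 fragments (11.2 CPM) than the stroke nuclei of any other named class with at least 50 nuclei in each library, whose values ran from 1.11 in oligodendrocyte precursors to 4.39 in interneurons. At the Hspb1 upstream site, the stroke values were 25.2 CPM in astrocytes, 10.2 in endothelial nuclei (2 and 9 fragments), 8.67 in oligodendrocytes (2 and 8) and 5.57 in oligodendrocyte precursors (2 and 5). Nuclei in no class had 141 and 174 fragments at this site, a ratio of 1.65 (1.31 to 2.08).

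Over the nuclei in no class, which were the majority, Hmox1 had 453 fragments in sham and 415 in stroke (9.0 and 11.03 CPM), a ratio of 1.23 (1.07 to 1.40). Across the 10 combinations of class and library, which share 2 libraries and their depth, the genes whose log2 level followed Hmox1 most closely among 16461 were Vwa5a (Pearson r = 0.971), Rrm2 (0.957) and Ccdc146 (0.948). For Hspb1 they were D6Ertd527e (0.887), Ptpa (0.876) and Dpysl3 (0.857), and for Hspa8 they were Gm9970 (0.982), Srsf7 (0.974) and Fos (0.973). Each r rests on 10 points and was picked as among the highest of 16461 genes, so the values are descriptions. Hspb1 had 41 fragments in stroke astrocytes and 13 or fewer in each other combination. The gene closest to Hspa1a was Hspa1l (0.956), which shares part of its window, followed by Gm45717 (0.921) and Mfhas1 (0.913). The closest were Gata4 (0.935), S100a10 (0.921) and Best1 (0.908) for Hspa1b, Mrps28 (0.932), Fosl1 (0.927) and Pgm5 (0.913) for Hsph1, Amt (0.941), Cdk7 (0.934) and Suv39h1 (0.926) for Dnajb1, and Nckap5l (0.968), Tbl1xr1 (0.932) and Cbwd1 (0.931) for Hsp90aa1.

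The wider chaperone and antioxidant network was described by 10 lists of 82 genes. Within classes, most list genes named were called there, a choice made after their values were seen. Across all kept nuclei 2 of 82 were called higher and 0 lower, beside 11.5% and 0.372% of all genes. They were Nfe2l2, which encodes NRF2, with 958 and 1287 fragments (13.04 and 24.4 CPM; ratio 1.87, 1.72 to 2.03), and Slc7a11, the cystine importer and an NRF2 target, with 75.4 and 114 CPM (ratio 1.51, 1.46 to 1.57). None of the 10 other HSP70 and HSP110 genes, 3 HSP90 genes, 6 chaperonin genes, 10 J protein genes, 13 co-chaperone genes or 3 heat shock factor genes was called. The share of all genes called higher was 68.4% in the lowest of the 10 level groups and 0.334% in the highest. The list genes were not split by level. The median log2 ratio was -0.16 for the other HSP70 and HSP110 genes, -0.27 for the other HSP90 genes, -0.19 for the heat shock factors, 0.10 for the 7 other small heat shock proteins and 0.16 for the 6 NRF2 regulators, beside -0.03 for all genes.

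In astrocytes, 7 of 82 were called higher and 7 lower, a share near the 8.36% and 8.33% of all genes in each direction. Among the higher ones was Hspa1l, whose window overlaps that of Hspa1a. Of 7 other small heat shock proteins 2 were called higher (Cryab, 44 and 74 fragments, ratio 1.55, and Hspb3) and 1 lower (Cryaa). Of 6 NRF2 regulators, 2 were called higher and 0 lower: Nfe2l2 (48.7 and 75.6 CPM, ratio 1.55) and Maff (16.1 and 34.2 CPM, ratio 2.13), a small MAF partner of NRF2 and BACH1. Of 15 NRF2 targets, 2 were called higher and 0 lower: Gsr, glutathione reductase (33.3 and 63.2 CPM, ratio 1.90) and Osgin1 (15.8 and 30.1 CPM, ratio 1.91). Of 13 co-chaperones, 1 was called lower, Bag2, an HSP70 regulator (23.2 and 7.39 CPM, ratio 0.319). Bag3, which couples HSP70 to small heat shock proteins, had 44.9 and 64.1 CPM, a ratio of 1.43 that did not pass the limit. The other genes called lower were Hspa12a and Hspa12b, divergent HSP70 genes (ratios 0.616 and 0.405), the J protein gene Dnajb2 (0.665), the heat shock factor gene Hsf4 (0.545) and Slc40a1, which encodes the iron exporter ferroportin (22 and 14 fragments, 0.586).

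In myeloid nuclei, 11 of 80 list genes tested were called higher and 11 lower, no larger a share than the 17.4% and 14.7% of all genes. Of the NRF2 regulators, 3 of 6 were called higher and 0 lower, with a list median log2 ratio of 0.80 beside -0.01 for all genes. Nfe2l2 had 37 and 165 fragments (16.4 and 67.3 CPM), a ratio of 4.11 (2.86 to 6.05). Bach1 had 17.2 and 47.7 CPM, a ratio of 2.77, and Mafg had 28.3 and 73.8 CPM, a ratio of 2.61. Of 8 heme and iron genes tested, 2 were called higher and 0 lower: Blvra, biliverdin reductase, which acts on the product of Hmox1 (18.1 and 35.1 CPM, ratio 1.93), and Slc40a1 (13 and 43 fragments, ratio 3.05). Of 15 NRF2 targets, Gsr (ratio 1.53) and Osgin1 (1.81) were called higher and Me1, malic enzyme (0.623), lower. Among the chaperone lists, Hspa9 (1.57), Hspb8 (2.31), Bag3 (1.68) and Cdc37 (1.53) were called higher. Those called lower were Hspa12a (0.646), Hspa12b (0.415), Trap1 (0.587), Cryab (0.634), Hspb2 (0.615), the J protein genes Dnaja4 (0.565), Dnajb2 (0.619) and Dnajb11 (0.640), Bag2 (0.371) and Hsf4 (0.446). The weaker marker enrichment of the sham myeloid nuclei touches all of these ratios, as does the median share of fragments in peaks (38.3% in sham and 30.9% in stroke). Scaled to the fragments in peaks, 32.7% of all genes in this class were called higher and 5.45% lower, and list genes were not counted on that scale. The part of either difference was not tested. In glutamatergic neurons the median share of fragments in peaks was 42.5% in sham and 35.7% in stroke. Scaled to the fragments in peaks, 16.8% of all genes there were called higher and 2.61% lower, and list genes were not counted on that scale. In CPM, 1 of 81 list genes tested in this class was called higher (Gsr) and 11 lower, beside 7.21% and 7.54% of all genes. The lower ones were the chaperone genes Hspa2 (ratio 0.527), Hspa5 (0.623), Hspb7 (0.595), Hspb8 (0.549) and Cct3 (0.660), Hsf1, which encodes the heat shock factor HSF1 (238 and 81 fragments, 0.654), 3 heme and iron genes (Blvra, Slc40a1 and Hpx) and 2 of 6 NRF2 regulators, a list with 0 called higher and a median log2 ratio of -0.48 beside -0.05 for all genes. The 2 regulators were Nfe2l2 (41 and 12 fragments, 8.40 and 4.72 CPM, ratio 0.562, 0.269 to 1.09) and Keap1, the inhibitor of NRF2 (28.9 and 18.1 CPM, ratio 0.627, 0.439 to 0.880). The list median was 0.28 in interneurons, with none called, and 0.29 in striatal projection neurons, with Nfe2l2 called higher. Over all lists, 3 of 80 genes were called higher and 10 lower in interneurons, beside 8.10% and 11.7% of all genes, and 7 of 82 higher and 4 lower in striatal projection neurons, beside 7.96% and 7.68%.

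**Figure D5:**
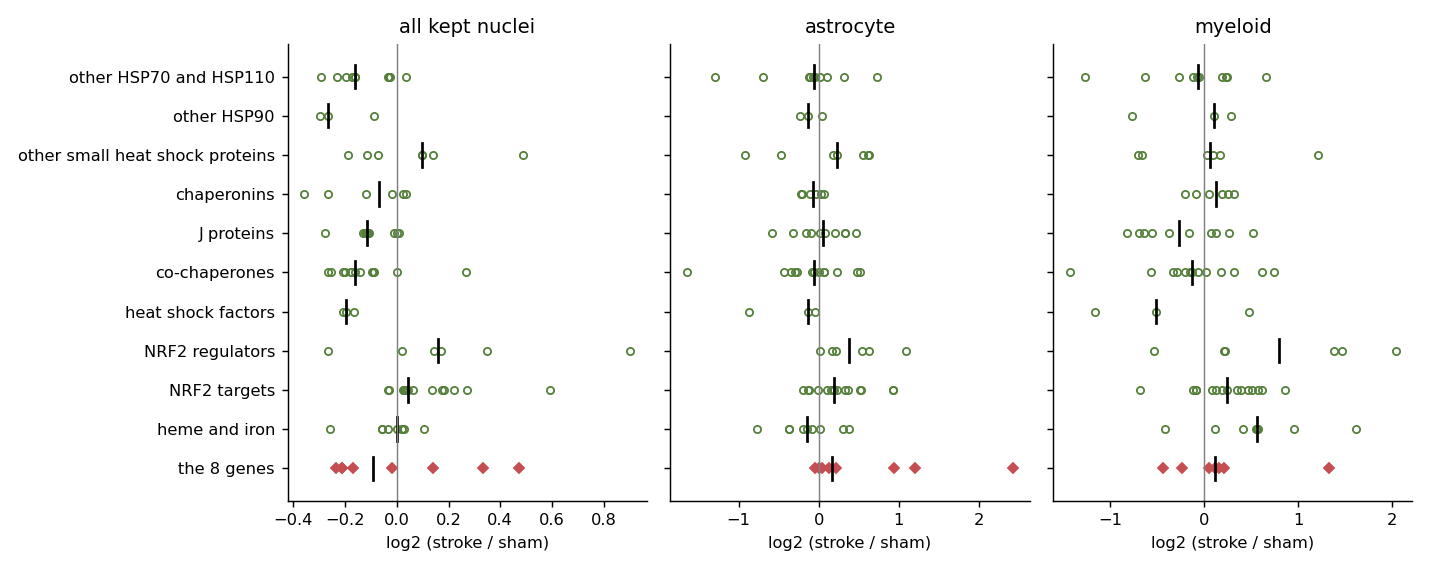
Log2 ratio (stroke over sham) of each gene of the 10 lists (open circles) and of the 8 genes (diamonds) with at least 20 fragments, and the median of each row (black line), in all kept nuclei, astrocytes and myeloid nuclei, with no error shown. The medians of the NRF2 regulators lie highest in astrocytes (0.38) and in myeloid nuclei (0.80).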

How the data were processed

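The authors processed the libraries (Next GEM Single Cell ATAC v2) with Cell Ranger ATAC 2.1.0 on mm10, which shifts fragment ends for Tn5. The deposited files list, per library, each fragment with its barcode and read count, and per barcode the counts of fragments that passed the pipeline's filters and that lie in its peaks, together with the cell call. Fragments were used here, not duplicate reads. Depth was 76959104 sham and 96465679 stroke fragments.

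A gene window was the GENCODE M21 gene body plus 2 kb upstream, and a fragment that overlapped it was counted once. Nuclei needed a positive cell call and over 20% of fragments in peaks. Classes came from 98 marker genes: a nucleus joined a class with at least 3 of its markers, a marker level at least 2-fold its expectation with p of 0.0001 or less, and a lead over the next class, with limits set after the marker distributions were seen. No doublet caller was run. All called barcodes were otherwise kept. Intervals came from scipy 1.17.1 under Python 3.11.15. Counting and intervals were tested on simulated data. The members, marker and gene lists were chosen with earlier results of these data known. All 8 members are named. A list gene was to be named when past 1.5-fold in all kept nuclei or at the extreme of its list, and the 3 genes most like each member by Pearson correlation of log2(CPM + 1), among genes with at least 500 fragments. Alternatives changed the window, scaling, barcode filter, counting unit, depth, class mix and gate.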

Additional observations from a re-analysis of the deposited data

Results flagged for a closer look

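Hspa1b, which encodes inducible HSP70, was past 1.5-fold in opposite directions in neuronal classes. Its stroke over sham ratio was 1.98 (1.19 to 3.30) in glutamatergic neurons (33 and 34 fragments). It was 0.383 (0.0949 to 1.15) in interneurons (19 and 4) and 0.659 (0.267 to 1.42) in striatal projection neurons (41 and 8). The intervals in interneurons and striatal projection neurons held 1. Of all genes, 7.21% were called higher in glutamatergic neurons. In interneurons 11.7% were called lower, and in striatal projection neurons 7.68%. With 1 library per condition the difference between classes was not tested. The neighbouring Hspa1a, whose window shares 1868 words of 50 bases with that of Hspa1b, was not past 1.5-fold in glutamatergic or striatal projection neurons and had under 20 fragments in interneurons. With the wider class assignment the Hspa1b ratios were 0.966, 0.708 and 1.05 in the same order.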

How the results depend on the processing

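No paired analysis was possible because sham and stroke had 1 library apiece. The median log2 ratio of all genes was -0.03 as reported, 0.11 scaled to promoter fragments and 0.21 scaled to peak fragments. In all kept nuclei the ratios scaled to peak fragments were 1.29 for Hspa1a, 1.16 for Hspa1b, 0.9998 for Hsph1, 1.01 for Dnajb1, 1.05 for Hsp90aa1, 1.01 for Hspa8 and 1.63 for Hmox1. Scaled to promoter fragments they were 0.933 for Hsph1, 0.947 for Dnajb1, 0.976 for Hsp90aa1 and 0.946 for Hspa8. With all called barcodes they were 0.814 for Hspa1a, 0.739 for Hspa1b, 1.01 for Hspb1, 0.626 for Hsph1, 0.592 for Dnajb1, 0.627 for Hsp90aa1, 0.585 for Hspa8 and 1.18 for Hmox1. With over 30% in peaks they were 0.952 for Dnajb1, 0.952 for Hsp90aa1 and 0.925 for Hspa8. In the promoter window alone they were 0.791 for Hsph1 and 1.02 for Hsp90aa1. Thinned to 3000 fragments, which left out 967 sham and 711 stroke nuclei, they were 1.14 for Hspa1b, 0.917 for Hsph1, 0.804 for Dnajb1 and 1.16 for Hmox1.

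By class, the Hspa1b ratio with alternate markers was 1.004 in glutamatergic and 1.11 in striatal projection neurons. With the wider assignment, chosen after seeing the data, it was 0.966 and 1.05. In astrocytes, thinning gave 1.01 for Hspa1a, then under 20 fragments, and 0.939 for Hmox1, and Hspb1 was 15.2 with the stricter gate and 2.09 with the wider assignment. Hmox1 was 5.03 in myeloid nuclei with the stricter gate. Of the other alternative values of the main results, 93 stayed within the counting interval or, for counts, within 1.5 times. Scaled to promoter fragments, 1 of 8 members was past 1.5-fold in all kept nuclei, beside 15.2% of all genes higher and 0.129% lower. In striatal projection neurons it was 1 of 7, beside 14.2% and 3.93%. In the promoter window, 2 of 7 members were past it in glutamatergic neurons, beside 5.00% of all genes higher and 15.7% lower. There 0 of 4 were past it in interneurons (7.37% and 15.7%) and 1 of 7 in striatal projection neurons (5.11% and 16.6%). With no minimum of fragments, 2 of 8 were past it in glutamatergic (14.5% and 12.2%) and 2 of 8 in myeloid nuclei (25.2% and 16.4%). The cause of these changes was not tested. Depth limits the class values: the Hspb1 call in astrocytes rests on 7 sham fragments.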

Other observations

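In called barcodes with 20% or less of their fragments in peaks, which made up 162 sham and 3686 stroke barcodes and entered no main comparison, Hmox1 had 8 fragments in sham and 253 in stroke (5.99 and 7.15 CPM). Oligodendrocyte precursor nuclei, at 71 and 80 too few to compare, held 88 and 50 Hsph1 fragments (101 and 55.7 CPM), and 71.3 CPM in sham with the wider assignment.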
